A study of Mus musculus with 8 samples.

Results

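The translation initiation and elongation factor genes are the genes whose symbol begins with Eif1 to Eif6 or with Eef1 or Eef2, apart from Eif2s3y, which was left out beforehand. The symbols picked 67 rows of the wild-type table and 61 rows of the RasV12 table, which stand for 66 genes of 23553 gene names in either table. Of these 66, 63 reached 1 FPKM (fragments per kilobase of transcript and per 1000000 fragments) in at least 1 group. The other 3 were Eef1a2, the elongation factor form of muscle and neurons, listed at 0 in all 4 groups, Eif4e1b, at 0.0639 FPKM or less, and Eif2c4. Symbols of the Eif2c kind are older names of the Argonaute genes Ago1 to Ago4, which carry small RNAs and are not initiation factors. They are counted apart, which leaves 60 translation factor genes at 1 FPKM or more.

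Translation of a messenger RNA begins when eIF2 brings the initiator tRNA to the small ribosomal subunit, eIF3 holds that complex together and eIF4F (the cap-binding eIF4E, the scaffold eIF4G and the helicase eIF4A) recruits the message. eIF1 and eIF1A govern the choice of the start codon, eIF5 and eIF5B act in subunit joining, and eEF1 and eEF2 then bring aminoacyl-tRNAs and move the ribosome along. The pathway is braked by the eIF2 kinases, by the eIF4E binding proteins downstream of mTOR, and by the eEF2 kinase. Many mRNAs of ribosomal proteins and elongation factors begin with a C and a pyrimidine run, the terminal oligopyrimidine (TOP) motif, which places their translation under mTOR.

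RNA-seq was done on the mouse basal cell carcinoma line ASZ. There were 4 groups of 2 libraries, namely wild-type ASZ cells with DMSO, wild-type ASZ cells with CBD, ASZ cells that express RasV12 (an activated form of the GTPase Ras) with DMSO, and the same RasV12 cells with CBD. What CBD stands for is not in the labels, which also give no dose, no time of exposure, no promoter for RasV12 and no statement on whether the RasV12 line was a clone. They number the replicates without saying whether these were separate cultures. The authors' p-values therefore speak only for these libraries, whose spread may be technical.

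The deposited tables give 1 FPKM value for each group, so the replicates cannot be shown singly and no SD exists. The error given below is the standard error (SE) of the log2 FPKM ratio of CBD to DMSO implied by the authors' p-value. Depth estimated from the smallest FPKM steps ranged from 10.6 to 16.5 M fragments per library, where M stands for 1000000. All 7 basal keratinocyte markers, such as Krt5 and Krt14, were above 1 FPKM, with sums of 8840.0 to 10792 FPKM per group, most of it from those 2 keratins. Of 4 fibroblast markers 0 reached 1 FPKM in any group, and Thy1 was listed at 0. Of 3 markers each for immune, endothelial and melanocyte cells 1 did (Cd68, Pecam1 and Tyr), while Ptprc stood at 0.00494 FPKM or less and Kdr and Mlana at 0. Some markers moved with CBD, in wild-type and in RasV12 cells. Krt15 went from 146 to 33.7 and from 274 to 130.2 FPKM, Trp63 from 64.6 to 20.7 and from 92.0 to 53.2, Cd68 from 8.99 to 16.5 and from 31.7 to 53.8, and Tyr from 0.276 to 4.11 and from 0.209 to 0.892. Their part in the results below was not tested. In such bulk samples, fewer cells of a type and less RNA per cell cannot be told apart.

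The start sites of translation factor genes are shown first because the TOP motif sits there. The windows below span the 15 bases before and the 15 bases from the annotated first base, on RefSeq sequence of the GRCm38.p6 build, whereas the expression files were made on mm9. Capitals mark the longest run, beginning within 10 bases of the first base, of a C followed by at least 4 bases that are C or T. The 2 members with such a run at the first base itself are given first, then the most abundant members with a single listed start, then 3 members that were lower with CBD.
Eif3f, chr7:108934400-108934429, plus strand: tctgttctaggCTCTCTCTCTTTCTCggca
Eif2s3x, chrX:94212637-94212666, minus strand: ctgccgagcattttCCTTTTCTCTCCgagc
Eef1a1, chr9:78481710-78481739, minus strand: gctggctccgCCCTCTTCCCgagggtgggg
Eef2, chr10:81176616-81176645, plus strand: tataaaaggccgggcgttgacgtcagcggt
Eif1, chr11:100319934-100319963, plus strand: gcgctggcgtcacaggggcggctatataag
Eif5, chr12:111538086-111538115, plus strand: gagatcgacgtgcatgcgagccaatgacaa
Eif4ebp2, chr10:61452655-61452684, minus strand: ggtatcgcagcgggacgaccgggcgagagc
Eif2ak3, chr6:70844500-70844529, plus strand: cgcagagcagacgcacggaaCCCTCgctca

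Of 60 members 47 had a promoter in the table. A run at exactly the annotated first base occurred in 2 of 47 members (4.26%) and in 3.01% of 27025 genes with a promoter. A run within 10 bases occurred in 16 of 47 members (34%) and in 34.4% of all those genes. The runs were searched on the gene's own strand, and both the annotated starts and the matches are descriptions only. An annotated first base need not be the true start of the message. A window without a run, such as that of Eef2 or Eif1, therefore does not show that the message lacks the TOP motif. Among members called higher with CBD, the run within 10 bases was in 3 of 15 in wild-type cells and in 7 of 21 in RasV12 cells. Among those called lower it was in 4 of 10 and in 2 of 5. Of all genes with a promoter it was in 36.3% and 36.9% of those called higher and in 35.7% and 35.5% of those called lower. The run at exactly the first base was in 1 of 15 and 2 of 21 members called higher and in 0 of 10 and 0 of 5 called lower, beside 4.43% and 4.31% of all genes called higher and 2.29% and 2.46% of those called lower. These shares were not tested.

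The comparison of CBD with DMSO within each line asks how the agent changed these genes in cells without and with activated Ras. In both lines 5 of 6 tested elongation factors and most eIF3 subunits rose to between 1.46 and 3.02 times their DMSO level, while the eIF2 kinase Eif2ak1, the eEF2 kinase, 2 genes that act on eIF4E (Eif4ebp2 and Eif4enif1), Eif5 and Eif1a fell. In wild-type cells 21 of 59 tested members were higher with CBD and 12 lower, at a Benjamini-Hochberg adjusted p under 0.05. Of all 10703 genes used in that table, 14.0% were called higher and 42.4% lower (56.4% in either direction). In RasV12 cells 27 of 59 were higher and 6 lower, against 18.7% higher and 24.4% lower of 11075 genes (43.2% in either direction). By share, 35.6% of members were higher and 20.3% lower in wild-type cells, and 45.8% and 10.2% in RasV12 cells. The median log2(FPKM + 1) change of the members was 0.30 in wild-type cells and 0.56 in RasV12 cells, beside −0.37 and −0.01 for all genes used.

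These counts depend on how the groups are put on a common scale, since the FPKM sum over all genes was 371297 with DMSO and 531898 with CBD in wild-type cells, and 437048 and 658792 in RasV12 cells. Setting these sums equal lowers every CBD value by 0.52 and 0.59 on the log2 scale. The members then split into 10 higher and 20 lower in wild-type cells and 2 higher and 17 lower in RasV12 cells. Setting the median log2 ratio of all genes to 0 raises wild-type CBD values by 0.44 and gives 35 higher and 10 lower; in RasV12 cells it leaves 27 and 6. Setting equal the summed product of FPKM and transcript length, a stand-in for the mass of fragments, lowers CBD values by 0.12 and 0.41 and gives 17 higher and 13 lower, and 13 higher and 12 lower. Of the called members, the share that was higher was 63.6% in wild-type cells as deposited, and 33.3%, 77.8% and 56.7% under these 3 scalings. In RasV12 cells it was 81.8%, and then 10.5%, 81.8% and 52%. Calls under another reference were made with the implied SE. That SE is an upper limit for genes at the lowest p-value of the authors' test, which 1712 rows of the RasV12 table share. For such genes a lost call does not show that the change depends on the scale. Each direction below is on the deposited scale. For the members, the calls that a scaling ended are given with it, by gene or by count.

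**Figure D1:**
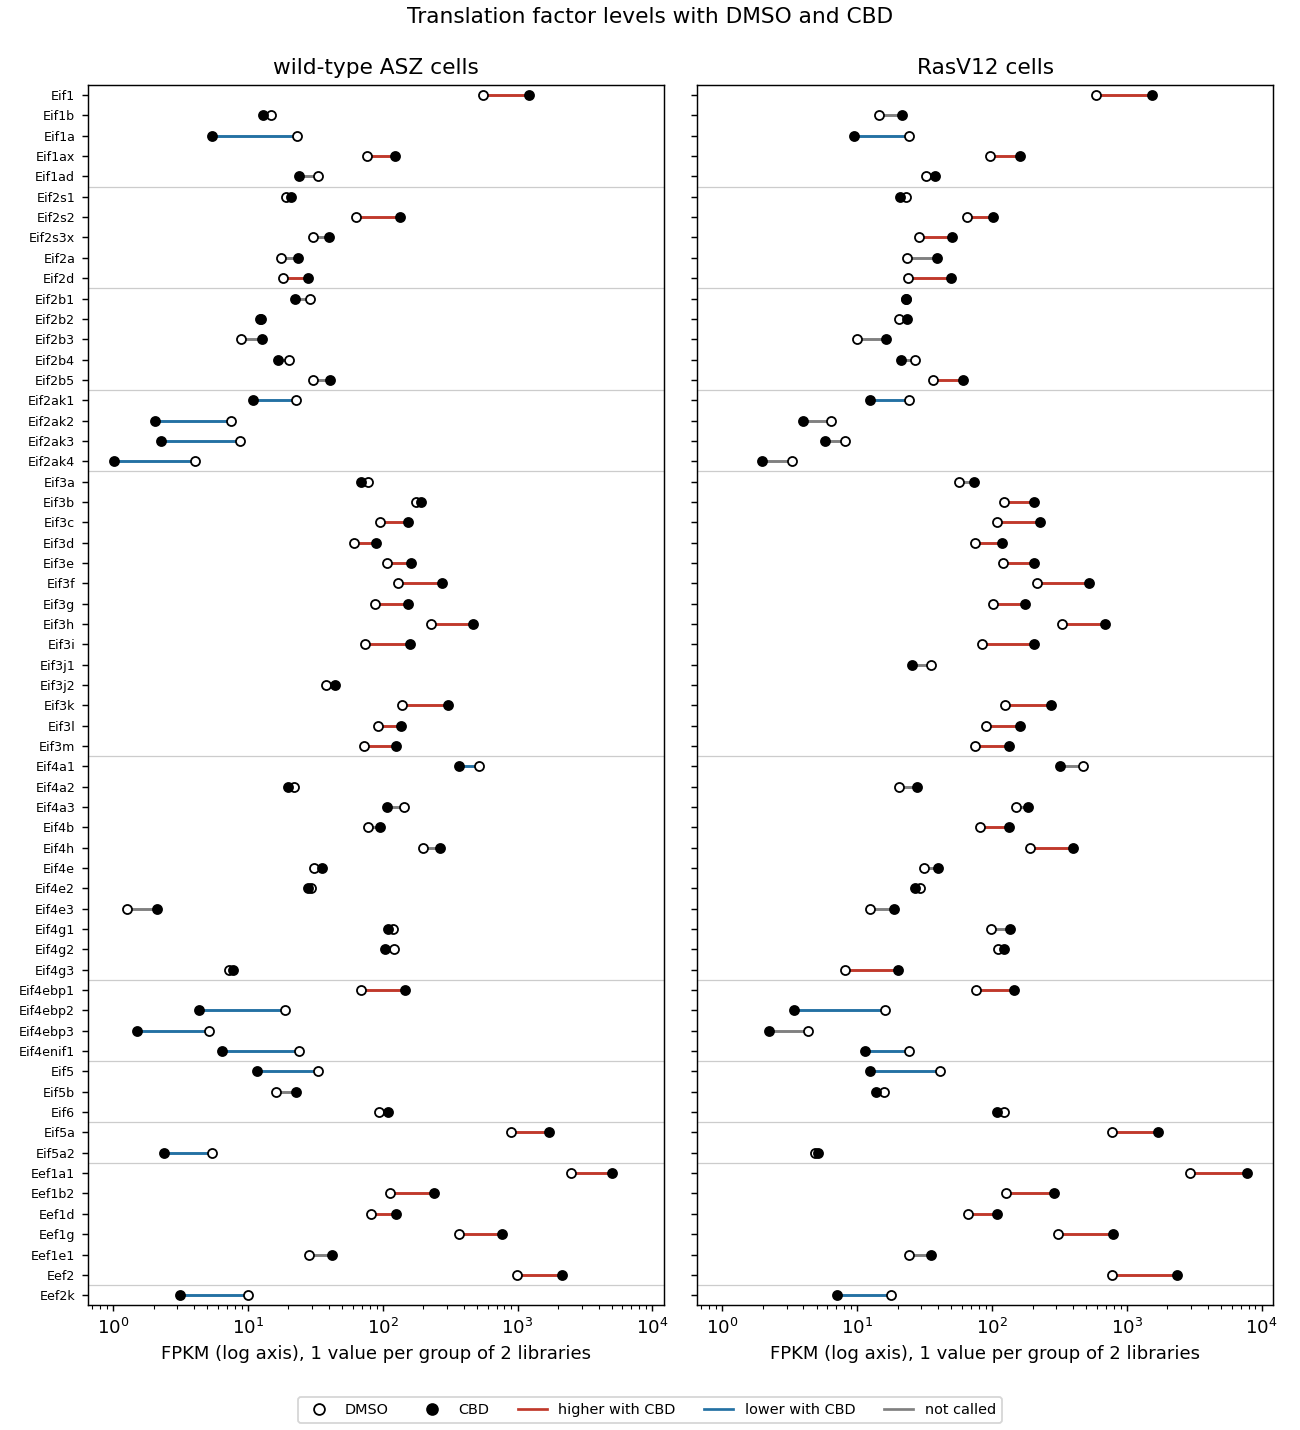
FPKM (log axis) of the 60 translation factor genes with DMSO (open) and CBD (filled) in each line, 1 value per group of 2 libraries, grouped by role; line colour marks genes called higher, lower or not called. The elongation factors and most eIF3 subunits move right in both panels, from 66.1 to 7821 FPKM among the called elongation factors, while the eIF2 kinases lie to the left of their DMSO values.

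Of the 58 members tested in both lines, 21 were higher in both, 6 were lower in both and 19 were called in neither. Another 6 were called higher in RasV12 cells and not in wild-type cells, 6 were called lower in wild-type cells and not in RasV12 cells, and 0 were called in opposite directions. The 2 remaining members are a pair of near-identical eIF3j copies, of which the wild-type table lists Eif3j2 and the RasV12 table Eif3j1. A call in 1 line alone is no test of a difference between the lines, which has its own test. Each line was set against its own DMSO group. This split was not made over all genes tested in both lines, so it does not show an agreement particular to the members.

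Among the 5 genes whose symbols begin with Eif1, grouped here under start codon scanning, 2 rose and 1 fell in each line. Eif1, which keeps the scanning ribosome from stopping at a wrong codon, stood at 559 FPKM with DMSO and 1217 with CBD in wild-type cells, and at 589 and 1538 in RasV12 cells. Both CBD values lie above both DMSO values, with log2 ratios of 1.12 (SE 0.22, adjusted p 1.86e-06) and 1.38 (SE at most 0.34, adjusted p 0.000324). An SE is written as at most its value wherever the p-value stood at the lowest level of its table, since the ratio is then divided by too small a quantile. Eif1 was 1 of the 2 members, with Eef2, that stayed higher in RasV12 cells with equal FPKM sums.

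eIF1A is encoded by the autosomal Eif1a and the X-linked Eif1ax, which moved in opposite directions. Eif1a fell from 22.9 FPKM with DMSO to 5.44 with CBD in wild-type cells (log2 ratio −2.08, SE 0.27, adjusted p 2.17e-13) and from 24.4 to 9.50 in RasV12 cells (log2 ratio −1.36, SE at most 0.34, adjusted p 0.000324). Eif1ax rose from 75.9 to 123 FPKM (log2 ratio 0.70) and from 96.8 to 162.5 (log2 ratio 0.75), calls that were lost with equal FPKM sums and, in RasV12 cells, with equal fragment mass. The FPKM ratio of Eif1ax to Eif1a, which no scaling of a group can move, went from 3.31 to 22.6 in wild-type cells and from 3.97 to 17.1 in RasV12 cells. Reads shared by the copies could be split between them. Eif1b, a close relative of Eif1, stood at 14.9 and 12.9 FPKM and at 14.5 and 21.5 and was called in neither line, as was Eif1ad at 33.3 and 24.0 and at 32.5 and 37.5.

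Of the 5 genes that deliver the initiator tRNA, 2 rose in wild-type cells and 3 in RasV12 cells, and 0 fell. Eif2s2, the beta subunit of eIF2, rose from 63.6 to 134 FPKM in wild-type cells (log2 ratio 1.07, SE 0.22, adjusted p 4.66e-06) and from 65.1 to 102 in RasV12 cells (0.65, SE 0.27, adjusted p 0.0421). Eif2s3x, the gamma subunit, stood at 30.3 and 39.9 FPKM in wild-type cells, which was not called (adjusted p 0.128), and rose from 28.9 to 50.4 in RasV12 cells (adjusted p 0.00924). Eif2s1, the alpha subunit that the kinases phosphorylate, was called in neither line, at 19.3 and 20.9 and at 23.1 and 20.7 FPKM. The 3 subunits of this complex thus showed log2 ratios from 0.12 to 1.07 in wild-type cells and from −0.15 to 0.80 in RasV12 cells.

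Eif2d, which can place tRNAs on the ribosome without eIF2, rose from 18.4 to 28.1 FPKM in wild-type cells (log2 ratio 0.61, SE 0.24, adjusted p 0.0238) and from 23.9 to 49.3 in RasV12 cells (1.05, SE 0.28, adjusted p 0.000838). Eif2a, another alternative initiator factor, stood at 17.7 and 23.7 and at 23.6 and 39.5 FPKM, with SEs of 0.47 and 0.52, and was called in neither line. Under equal FPKM sums 1 of these 5 genes was called higher in wild-type cells and 0 in RasV12 cells, where Eif2s1 was called lower. Equal fragment mass also ended the call of Eif2d in wild-type cells and those of Eif2s2 and Eif2s3x in RasV12 cells, and genes of like transcript length as the reference ended that of Eif2s2 in RasV12 cells.

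Of the 5 subunits of eIF2B, the factor that reloads eIF2 with GTP, few were called. In wild-type cells 0 of 5 were called, with log2 ratios from −0.35 to 0.52, and in RasV12 cells 1 of 5 was higher. That 1 was Eif2b5, the catalytic subunit and the most abundant of the 5, which stood at 30.4 and 40.5 FPKM in wild-type cells (log2 ratio 0.41, SE 0.23, adjusted p 0.109). In RasV12 cells it rose from 36.5 to 60.8 FPKM (a log2 ratio of 0.74, SE 0.27, adjusted p 0.0177), a call lost with equal FPKM sums, with equal fragment mass and with genes of like transcript length as the reference. Eif2b1 stood at 28.7, 22.4, 23.1 and 23.1 FPKM over the 4 groups in the order wild-type DMSO, wild-type CBD, RasV12 DMSO and RasV12 CBD. In the same order Eif2b2 stood at 12.2, 12.5, 20.5 and 23.4 FPKM and Eif2b3 at 8.88, 12.7, 9.95 and 16.5, the last pair with a log2 ratio of 0.73 (SE 0.35, adjusted p 0.0772), close in size to that of Eif2b5. Eif2b4 stood at 20.1, 16.6, 27.0 and 21.1 FPKM, but its implied SEs of 3.20 and 2.03 are too wide to place its change.

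All 4 eIF2 kinases fell in wild-type cells, where 42.4% of all genes did, and 1 of 4 fell in RasV12 cells. These kinases phosphorylate eIF2 alpha and so slow initiation under different stresses. Eif2ak1 (HRI, sensitive to heme) fell from 22.8 to 10.9 FPKM in wild-type cells (log2 ratio −1.06, SE 0.33, adjusted p 0.00341). In RasV12 cells it fell from 24.4 to 12.4 (log2 ratio −0.98, SE 0.37, adjusted p 0.0238), so the CBD values of both lines lie below both DMSO values. The wild-type call was lost with the median ratio set to 0.

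Eif2ak2 (PKR, sensitive to double-stranded RNA) fell from 7.51 to 2.06 FPKM in wild-type cells (log2 ratio −1.86, SE 0.30, adjusted p 2.86e-09) and stood at 6.42 and 3.97 in RasV12 cells (−0.69, SE 0.33, adjusted p 0.0719). Eif2ak3 (PERK, the sensor of the endoplasmic reticulum) fell from 8.79 to 2.26 FPKM in wild-type cells (−1.96, SE 0.29, adjusted p 1.44e-10) and stood at 8.15 and 5.80 in RasV12 cells (−0.49, SE 0.31, adjusted p 0.194). Eif2ak4 (GCN2, the sensor of uncharged tRNA) fell from 4.08 to 1.02 FPKM in wild-type cells (−2.002, SE 0.34, adjusted p 1.88e-08) and stood at 3.29 and 1.96 in RasV12 cells (−0.75, SE 0.37, adjusted p 0.0852). Within each line the CBD value of all 3 lies below the DMSO value.

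The transcripts of the 4 kinases are 4313 to 5298 nt long. When all genes were put into 10 bins by length, 60.5% and 71.2% of those in the 2 bins that hold the kinases were lower in wild-type cells. With the median change of genes of like length subtracted, 2 of the 4 kinases (Eif2ak2 and Eif2ak3) stayed lower in wild-type cells and 0 in RasV12 cells, where Eif2ak1 lost its call. All 4 were called lower in both lines under equal FPKM sums and under equal fragment mass.

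Of the 13 eIF3 subunit genes tested in each line, 10 rose and 0 fell in wild-type cells, and 11 rose and 0 fell in RasV12 cells. Their median log2(FPKM + 1) change was 0.69 and 0.83. eIF3 is the scaffold of the initiation complex, and its subunits Eif3f, Eif3h and Eif3m carry MPN or PCI folds that are shared with the proteasome lid and the COP9 signalosome. Eif3h was the most abundant subunit, at 229 and 471 FPKM in wild-type cells and at 329 and 685 in RasV12 cells, with log2 ratios of 1.04 (SE 0.22, adjusted p 6.43e-06) and 1.06 (SE at most 0.26, adjusted p 0.000324).

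Eif3f, whose annotated start carries the longest pyrimidine run of the windows printed, rose from 129.7 to 277 FPKM in wild-type cells (log2 ratio 1.10, SE 0.22, adjusted p 1.94e-06) and from 216 to 527 in RasV12 cells (1.29, SE at most 0.32, adjusted p 0.000324). Eif3i rose from 73.6 to 160.4 FPKM (1.12, SE 0.22, adjusted p 2.1e-06) and from 84.4 to 207 (1.29, SE at most 0.32, adjusted p 0.000324). Eif3k rose from 138 to 303 FPKM (1.13, SE 0.23, adjusted p 3.69e-06) and from 126 to 275 (1.13, SE 0.29, adjusted p 0.000594). These 4 subunits rose to between 2.05 and 2.19 times the DMSO level in wild-type cells and between 2.08 and 2.45 times in RasV12 cells.

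Eif3c, a core subunit, rose from 95.4 to 154 FPKM in wild-type cells (log2 ratio 0.69, SE 0.22, adjusted p 0.00322) and from 108 to 225 in RasV12 cells (1.05, SE at most 0.26, adjusted p 0.000324). Eif3d, which can itself bind the cap, rose from 61.1 to 89.8 and from 75.5 to 118 FPKM. Eif3e rose from 108 to 161 and from 121 to 204 FPKM, and Eif3g from 87.6 to 153 and from 101 to 175. Eif3l rose from 92.8 to 136 and from 90.2 to 162 FPKM, and Eif3m from 73.2 to 125 and from 74.4 to 133. The log2 ratios of these 5 ran from 0.55 to 0.80 in wild-type cells and from 0.64 to 0.85 in RasV12 cells.

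The core subunits Eif3a and Eif3b were not called in wild-type cells. Eif3a stood at 77.4 and 68.9 FPKM there (log2 ratio −0.17, SE 0.22) and at 57.4 and 73.8 in RasV12 cells (0.36, SE 0.26), and was called in neither line. Eif3b stood at 177 and 194 FPKM in wild-type cells (0.13, SE 0.22) and rose from 123 to 205 in RasV12 cells (0.73, SE 0.26, adjusted p 0.0131). The loosely bound subunit eIF3j was not called, with Eif3j2 at 38.0 and 44.4 FPKM in wild-type cells and Eif3j1 at 35.4 and 25.4 in RasV12 cells.

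With equal FPKM sums, 4 of the 10 subunits that rose in wild-type cells stayed higher (Eif3f, Eif3h, Eif3i and Eif3k) and Eif3a was called lower, while 0 of 11 stayed higher in RasV12 cells and Eif3j1 was called lower. The RasV12 SEs of Eif3c, Eif3f, Eif3h and Eif3i are upper limits, so a lost call of these is not shown to be a true loss. With equal fragment mass 7 of 10 and 5 of 11 stayed. With genes of like transcript length as the reference 6 of 10 and 4 of 11 stayed, and Eif3a, at 5125 nt the longest of those tested in wild-type cells, was then higher there at 1.19 on the log2 scale.

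The cap-binding and helicase group differed from eIF3 in its counts. Of its 11 tested genes 0 rose and 1 fell in wild-type cells, and 3 rose and 0 fell in RasV12 cells. Eif4a1, the main helicase and the most abundant of the group, fell from 518 to 369.9 FPKM in wild-type cells (log2 ratio −0.49, SE 0.22, adjusted p 0.047). In RasV12 cells it stood at 472 and 318 FPKM (log2 ratio −0.57, SE 0.27, adjusted p 0.0715). The wild-type call was lost with no filter on low genes and with the median ratio set to 0.

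Eif4h, a cofactor of the helicase, stood at 199.9 and 268 FPKM in wild-type cells (log2 ratio 0.42, SE 0.22, adjusted p 0.0849) and rose from 191 to 399.9 in RasV12 cells (1.07, SE at most 0.26, adjusted p 0.000324). Eif4b, its relative, stood at 77.1 and 94.97 FPKM and rose from 81.1 to 135 in RasV12 cells (adjusted p 0.0187). Eif4g3, a scaffold related to Eif4g1, stood at 7.30 and 7.75 FPKM in wild-type cells (0.09, SE 0.24, adjusted p 0.781) and rose from 8.16 to 20.2 in RasV12 cells (1.31, SE at most 0.32, adjusted p 0.000324). Eif4g3 and Eif3b stand on 2 rows each of the wild-type table, the other row being at 0. Under equal FPKM sums 0 of these 3 genes were called higher, and the call of Eif4b was also lost with equal fragment mass.

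The other members of the cap-binding complex were called in neither line. In the order wild-type DMSO, wild-type CBD, RasV12 DMSO and RasV12 CBD, the cap-binding protein gene Eif4e stood at 31.1, 35.7, 31.2 and 40.1 FPKM and the scaffold gene Eif4g1 at 119, 109, 97.6 and 136. Eif4g2, a scaffold that does not bind eIF4E, stood at 121, 104, 112 and 123 FPKM, and Eif4e2, a competing cap-binding protein, at 29.6, 27.8, 29.4 and 27.0. Eif4a2 stood at 22.0, 19.99, 20.4 and 27.9 FPKM and Eif4a3, a helicase of the exon junction complex, at 144, 108, 150.5 and 185. Eif4e3 stood at 1.27, 2.11, 12.5 and 18.9 FPKM, with both RasV12 values above both wild-type values, which come from another table. Its log2 ratios with CBD of 0.73 and 0.59 missed the threshold (adjusted p 0.0957 and 0.11). In wild-type cells it was called higher with the median ratio set to 0 (adjusted p 0.00547) and with genes of like length as the reference (adjusted p 0.0433). With genes of like transcript length as the reference, Eif4g1 and Eif4g2, with transcripts of 5638 and 7995 nt, were called higher in wild-type cells, at 1.24 and 1.36 on the log2 scale. With equal FPKM sums both were called lower there instead, at −0.64 and −0.73, as were Eif4a3 (−0.94) and Eif4e2 (−0.61).

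The proteins that bind and hold back eIF4E moved apart. Eif4ebp1, the main eIF4E binding protein and an mTOR substrate, rose from 69.3 to 148 FPKM in wild-type cells (log2 ratio 1.09, SE 0.23, adjusted p 6.17e-06) and from 76.3 to 146 in RasV12 cells (0.93, SE 0.28, adjusted p 0.00305). Its relative Eif4ebp2 fell from 18.9 to 4.35 FPKM (−2.12, SE 0.31, adjusted p 6.87e-11) and from 16.1 to 3.42 (−2.24, SE at most 0.55, adjusted p 0.000324), the largest fall among the 60 translation factor genes in both lines. The FPKM ratio of Eif4ebp1 to Eif4ebp2 went from 3.67 to 33.9 in wild-type cells and from 4.72 to 42.6 in RasV12 cells.

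Eif4ebp3 fell from 5.11 to 1.502 FPKM in wild-type cells (log2 ratio −1.77, SE 0.46, adjusted p 0.000317) and stood at 4.33 and 2.21 in RasV12 cells (−0.97, SE 0.51, adjusted p 0.11). With a transcript of 744 nt it was the shortest member that fell in wild-type cells. Eif4enif1, which carries eIF4E into the nucleus and to processing bodies, fell from 23.8 to 6.38 FPKM (−1.90, SE 0.32, adjusted p 2.94e-08) and from 24.1 to 11.5 (−1.07, SE 0.29, adjusted p 0.0013). Of these 4 genes 3 fell in wild-type cells and 2 in RasV12 cells. The rise of Eif4ebp1 was not called in RasV12 cells with equal FPKM sums or equal fragment mass.

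Eif5, the protein that makes eIF2 hydrolyse its GTP at the start codon, fell from 33.1 to 11.7 FPKM in wild-type cells (log2 ratio −1.501, SE 0.24, adjusted p 1.53e-09) and from 40.9 to 12.4 in RasV12 cells (−1.72, SE at most 0.42, adjusted p 0.000324). This call held under all 4 of the other references (equal FPKM sums, equal fragment mass, median ratio at 0 and genes of like length). Eif6, which keeps the large subunit from joining too early and was the most abundant of this group, stood at 93.6 and 109.9 FPKM (0.23, SE 0.22, adjusted p 0.379) and at 124 and 109.5 (−0.17, SE 0.26, adjusted p 0.61). Eif5b, the GTPase of subunit joining, stood at 16.1 and 22.6 FPKM (adjusted p 0.0537) and at 15.7 and 13.8.

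Eif5a, which carries the modified amino acid hypusine and helps the ribosome past proline runs, rose from 891 to 1708 FPKM in wild-type cells (log2 ratio 0.94, SE 0.29, adjusted p 0.00274) and from 784 to 1716 in RasV12 cells (1.13, SE 0.29, adjusted p 0.000594). Both rises were lost with equal FPKM sums. Its scarcer relative Eif5a2 fell from 5.45 to 2.38 FPKM in wild-type cells (−1.19, SE 0.30, adjusted p 0.000194, lost with genes of like length as the reference) and stood at 4.86 and 5.12 in RasV12 cells (0.07, SE 0.31, adjusted p 0.868). The FPKM ratio of Eif5a to Eif5a2 went from 164 to 718 in wild-type cells and from 161 to 335 in RasV12 cells.

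Of the 6 elongation factor genes tested, 5 rose and 0 fell in each line, with median log2(FPKM + 1) changes of 1.02 and 1.25. Eef1a1, which brings aminoacyl-tRNA to the ribosome, was the most abundant member in every group. It stood at 2482 FPKM with DMSO and 4990 with CBD in wild-type cells, and at 2922 and 7821 in RasV12 cells. The log2 ratios were 1.01 (SE 0.26, adjusted p 0.000276) and 1.42 (SE 0.54, adjusted p 0.024).

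Eef2, the translocase, rose from 992 to 2140.01 FPKM in wild-type cells (log2 ratio 1.11, SE 0.25, adjusted p 2.4e-05) and from 780.1 to 2358 in RasV12 cells (1.596, SE at most 0.39, adjusted p 0.000324), the largest rise of any member in RasV12 cells. The exchange factor of eEF1A rose in its 3 subunits. Eef1b2 rose from 113 to 239 FPKM (1.08, SE 0.22, adjusted p 2.8e-06) and from 128 to 287 (1.16, SE at most 0.29, adjusted p 0.000324). Eef1g rose from 371 to 762 FPKM (1.04, SE 0.22, adjusted p 9.01e-06) and from 310.3 to 788 (1.34, SE at most 0.33, adjusted p 0.000324).

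Eef1d rose less, from 81.2 to 126 FPKM (log2 ratio 0.64) and from 66.1 to 109.7 (0.73). Eef1e1, which belongs to the tRNA synthetase complex, stood at 28.6 and 41.8 FPKM and at 24.4 and 35.3, with adjusted p of 0.0533 and 0.16. Of the 5 that rose, 3 stayed higher with equal FPKM sums in wild-type cells (Eef2, Eef1b2 and Eef1g) and only Eef2 in RasV12 cells. Eef1b2 and Eef1g missed the threshold there at adjusted p 0.091 and 0.0517, from SEs that are upper limits. With equal fragment mass 5 and 3 of 5 stayed, and with genes of like length as the reference Eef1a1 lost its RasV12 call. Genes such as Eef1a1 have many processed pseudogenes, so their reads could have been split or lost in the authors' counting.

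Eef2k, the kinase that inactivates eEF2, fell from 10.1 to 3.12 FPKM in wild-type cells (log2 ratio −1.69, SE 0.31, adjusted p 3.95e-07) and from 17.8 to 7.15 in RasV12 cells (−1.31, SE at most 0.32, adjusted p 0.000324). Its transcript of 6580 nt is the longest of the members that fell, and both calls were lost with genes of like length as the reference, where 71.2% of wild-type genes in its length bin were lower. The brake on elongation and its target thus moved in opposite directions on the deposited scale in both lines. Among the Argonaute genes, Ago2 fell from 21.7 to 6.93 FPKM (−1.64, SE 0.24, adjusted p 4.49e-11) and from 14.9 to 6.16 (−1.28, SE at most 0.32, adjusted p 0.000324). Ago3 fell from 1.93 to 0.415 FPKM in wild-type cells (−2.22, SE 0.38, adjusted p 3.02e-08) and Ago1 from 11.1 to 5.68, while neither was called in RasV12 cells, at 1.42 and 0.783 and at 8.57 and 5.93. With genes of like length as the reference the falls of Ago2 and Ago3 were not called and Ago1 was called higher in wild-type cells, and the fall of Ago1 was also lost with the median ratio set to 0.

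**Figure D2:**
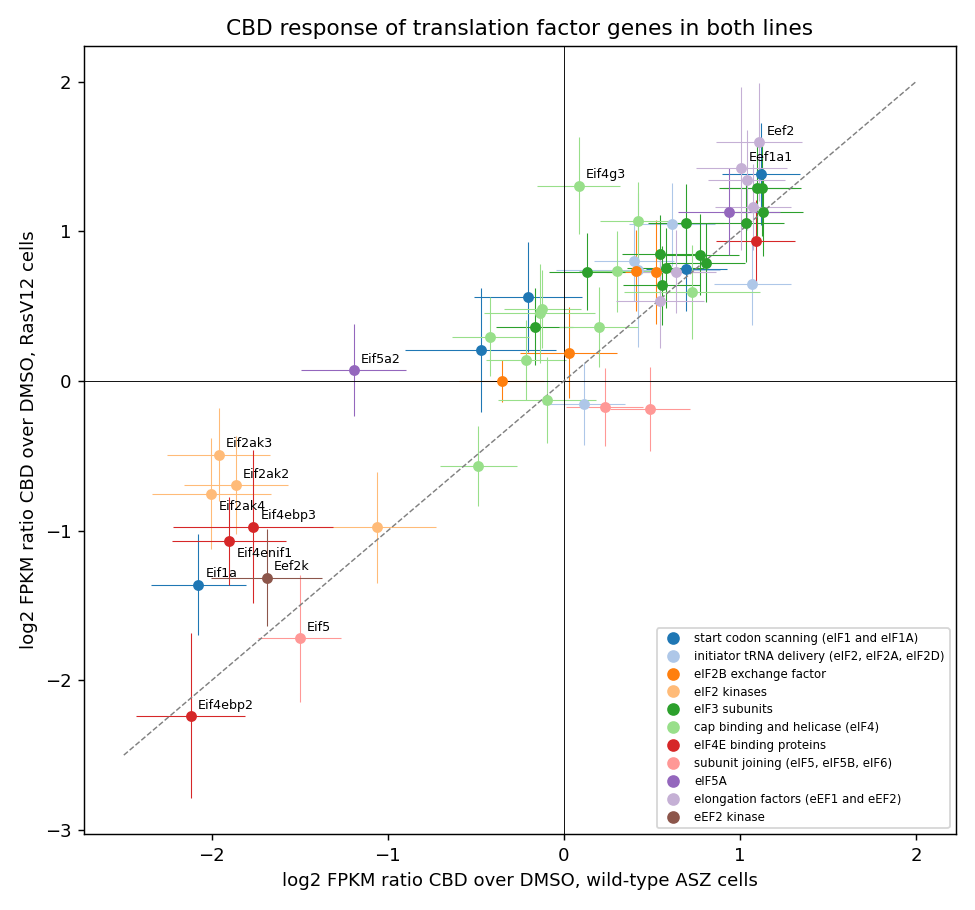
Log2 FPKM ratio of CBD to DMSO in wild-type ASZ cells (horizontal) against RasV12 cells (vertical), 1 point for each of 57 members with bars of 1 implied SE (an upper limit where the RasV12 p-value is the lowest of its table) and colour by role; Eif2b4, with SEs of 3.20 and 2.03, is not drawn and the dashed line marks equal ratios. The eIF3 and elongation factor genes lie at the upper right, Eif4ebp2 and Eif5 at the lower left, and Eif2ak3, Eif5a2 and Eif4g3 above the line.

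Genes that work beside these factors were listed by textbook role and not by how they moved. Of 58 such genes 55 were tested in each line, with 7 higher and 18 lower in wild-type cells and 11 higher and 12 lower in RasV12 cells. That is 12.7% higher and 32.7% lower in wild-type cells, where 14.0% and 42.4% of all genes were, and 20% and 21.8% in RasV12 cells, where 18.7% and 24.4% were. The median log2(FPKM + 1) change of these companion genes was −0.08 and 0.07, beside 0.30 and 0.56 for the factors themselves. Under equal FPKM sums the companion medians were −0.52 and −0.43. The companions then split into 4 higher and 26 lower in wild-type cells and 2 higher and 21 lower in RasV12 cells. With genes of like transcript length as the reference, 14 were higher and 9 lower, and 10 higher and 8 lower. The counts by role that follow are on the deposited scale and are to be read against the shares of all genes given above. Which companion calls a scaling ended is not given by gene.

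Among 12 genes that bind the cap or the poly(A) tail, Pabpc1, the main poly(A) binding protein and a TOP mRNA, rose from 585 to 1056 FPKM in wild-type cells and from 384 to 1243 in RasV12 cells. Pabpc4 stood at 35.0 and 43.7 FPKM in wild-type cells and rose from 22.5 to 46.1 in RasV12 cells. Larp4, a poly(A) binding protein, fell from 18.9 to 3.53 FPKM and from 14.3 to 5.57. Gigyf2, which represses translation together with eIF4E2, fell from 10.9 to 2.14 FPKM and from 11.6 to 2.06. In this role 2 rose and 5 fell in wild-type cells and 4 rose and 4 fell in RasV12 cells.

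Among 8 genes grouped as helicases, scaffolds and other regulators of initiation, Tpt1, another TOP mRNA, rose from 407 to 996 FPKM and from 721 to 1783. Ddx3x, an RNA helicase of initiation, fell from 62.7 to 12.5 FPKM and from 92.4 to 11.9. Pdcd4, an inhibitor of eIF4A, fell from 22.7 to 5.59 FPKM and from 31.0 to 5.41, and Impact, an inhibitor of GCN2 activation, from 7.44 to 0.982 and from 7.69 to 1.41. Abcf1 rose from 75.3 to 106 FPKM and from 61.9 to 103. In this role 2 rose and 3 fell in each line, of 8 genes tested in wild-type cells and 7 in RasV12 cells.

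Among 10 kinases, phosphatase subunits and their substrates, 2 rose and 6 fell in wild-type cells and 2 rose and 2 fell in RasV12 cells. Ppp1r15a (GADD34), which directs the phosphatase that reverses eIF2 alpha phosphorylation, rose from 8.81 to 31.2 FPKM and from 7.67 to 23.9. The S6 kinases fell, Rps6kb1 from 13.6 to 5.23 FPKM and from 12.9 to 6.56, and Rps6kb2 from 7.31 to 3.51 and from 9.85 to 3.07. Mknk2, which phosphorylates eIF4E, fell from 18.7 to 6.56 FPKM in wild-type cells and stood at 42.4 and 37.2 in RasV12 cells.

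Of 8 tested genes for hypusine and diphthamide, the modifications of eIF5A and eEF2, 1 rose and 1 fell in wild-type cells and 2 rose and 1 fell in RasV12 cells. Dhps, which makes hypusine on eIF5A, rose from 22.5 to 51.3 FPKM and from 21.4 to 51.5, in the same direction as its substrate Eif5a. Dph2, of the diphthamide pathway, fell from 4.17 to 0.591 FPKM and from 3.97 to 1.53. Dph6, of the same pathway, stood at 8.47 and 9.12 FPKM in wild-type cells and rose from 6.31 to 11.99 in RasV12 cells.

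Of 8 genes of termination and recycling 0 rose, while 2 fell in wild-type cells and 1 in RasV12 cells. Gspt1, the GTPase of termination, fell from 26.1 to 13.2 FPKM and from 23.2 to 12.4. Pelo, which rescues stalled ribosomes, fell from 21.3 to 7.72 FPKM in wild-type cells and stood at 19.98 and 21.1 in RasV12 cells. Of the mitochondrial factors, 0 of 9 rose and 1 fell in wild-type cells and 1 of 10 rose and 1 fell in RasV12 cells. Tufm, the mitochondrial elongation factor, stood at 61.6 and 82.6 FPKM in wild-type cells and rose from 71.5 to 123 in RasV12 cells. The 2 low release factor genes were lower, Mtrf1 from 1.33 to 0.580 FPKM in wild-type cells and Mtrf1l from 1.004 to 0.360 in RasV12 cells.

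The comparison of the responses asks whether RasV12 cells reacted differently to CBD. The difference of the log2 FPKM ratios, RasV12 minus wild-type, was set against its implied SE (a two-sided normal test with Benjamini-Hochberg adjustment). The 2 lines come from tables that differ in gene names, with Eif2c2 in the wild-type table listed as Ago2 in the RasV12 table. Their p-values also differ in kind. A difference between the lines therefore cannot be told apart from one between the tables. Of 58 members 3 passed, all with a higher ratio in RasV12 cells, and 6 had an unadjusted p under 0.05. Of all 10405 genes 9.23% passed, 8.65% with a higher and 0.577% with a lower ratio in RasV12 cells. The median difference was 0.28 over the members and 0.41 over all genes, and 44 of 58 members were above 0. The counts of 6 and 44 were not made over all genes, so they do not set the members apart.

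Eif2ak3 differed by 1.47 (SE 0.43, 95% interval 0.63 to 2.31, adjusted p 0.012), with FPKM of 8.79 and 2.26 in wild-type and 8.15 and 5.80 in RasV12 cells. Eif5a2 differed by 1.27 (SE 0.43, interval 0.43 to 2.10, adjusted p 0.0378) and Eif4g3 by 1.22 (SE at most 0.40, interval at its widest 0.44 to 2.002, adjusted p 0.0305). With genes at the lowest RasV12 p-value left out, Eif4g3 among them, 2 members passed, Eif2ak3 (adjusted p 0.0137) and Eif5a2 (adjusted p 0.0411). The other 2 kinases with a wild-type fall and no RasV12 call, Eif2ak4 and Eif2ak2, differed by 1.25 (interval 0.27 to 2.23, adjusted p 0.0966) and 1.17 (interval 0.30 to 2.04, adjusted p 0.0725). With equal FPKM sums 1 member passed, Eif2ak3, and with each table's median ratio set to 0 there were 0, the largest difference then being that of Eif2ak3 at 1.04 (adjusted p 0.206).

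For Eef1a1 the interval of the difference ran from −0.76 to 1.59. For Eef2 and Eif3h, whose RasV12 p-values stood at the lowest level of the table, it ran at its widest from −0.42 to 1.40 and from −0.64 to 0.68. A missed threshold therefore does not show that the lines reacted alike. Among 54 companion genes 4 passed, each with the higher ratio in RasV12 cells. Of all genes 8.65% passed in that direction. The 4 companions were Pelo, which differed by 1.54 (adjusted p 0.00864), the mTORC1 scaffold Rptor by 1.44 (adjusted p 0.00213), Mknk2 by 1.33 (adjusted p 0.0119) and the kinase Mtor by 1.12 (adjusted p 0.0319). These differences are given on the deposited scale only, where the median difference over all genes was 0.41. Mtor stood at 8.58 and 3.86 FPKM in wild-type and at 8.66 and 8.47 in RasV12 cells.

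**Figure D3:**
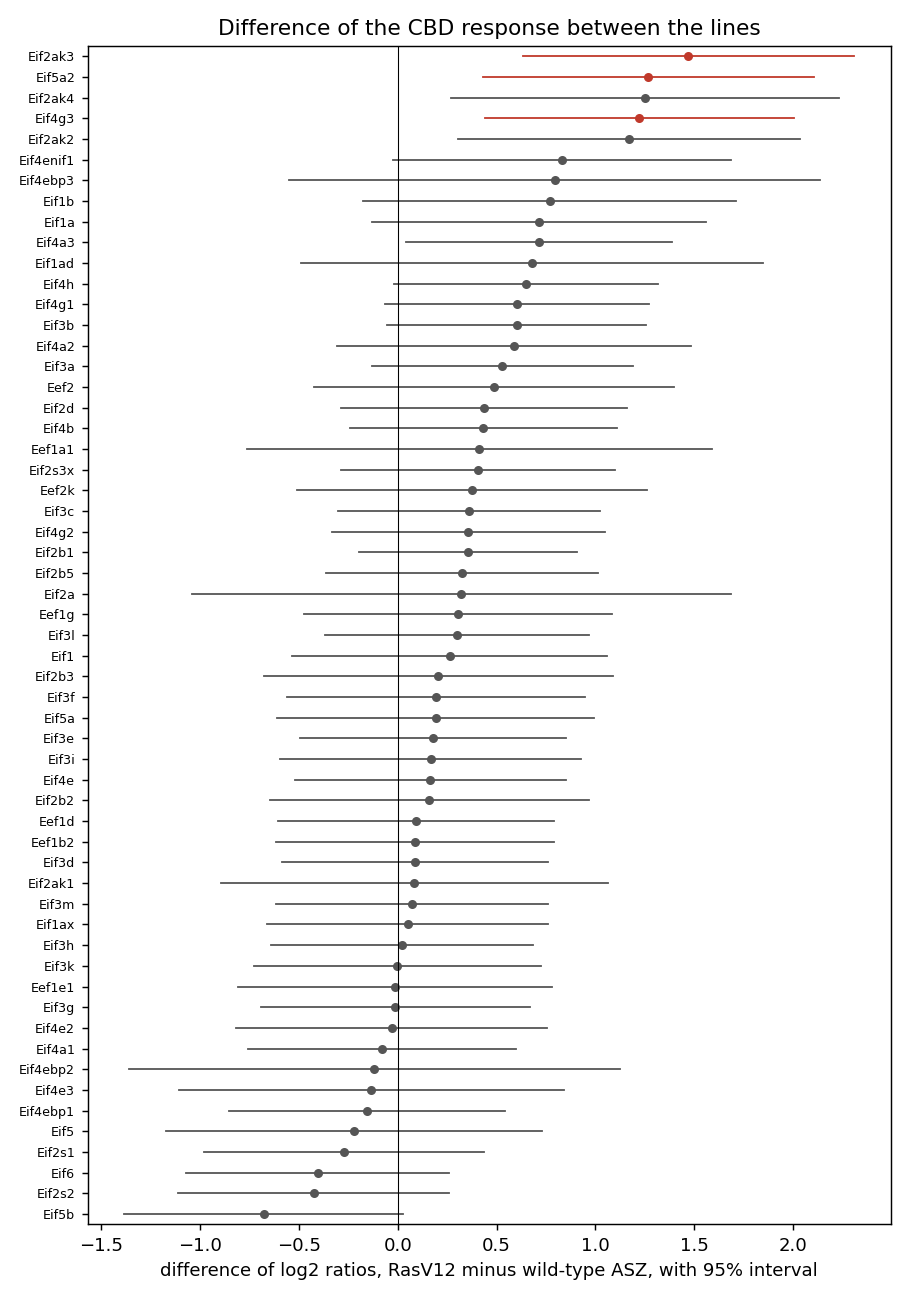
Difference of the log2 FPKM ratios of CBD to DMSO, RasV12 minus wild-type ASZ, for 57 members with 95% intervals from the implied SEs, at their widest where the RasV12 p-value is the lowest of its table (Eif2b4, with an interval from −7.52 to 7.34, is not drawn); red marks an adjusted p under 0.05. Eif2ak3, Eif5a2 and Eif4g3 are red, from 1.22 to 1.47. Above 0 lie 44 of the 58 tested members, a count not made over all genes, whose median difference was 0.41.

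The levels of the lines stand in different tables and were only described, on the log2(FPKM + 1) scale centred on the median of all genes used. With DMSO, 1 of 58 members was at least 1 apart between the lines. That was Eif4e3, an atypical cap-binding protein, at 1.27 FPKM in wild-type and 12.5 in RasV12 cells, 2.40 higher on this scale in RasV12 cells. The other 57 lay between −0.69 and 0.59. With CBD 3 members were at least 1 apart. Eif4e3 was 2.05 higher in RasV12 cells, while Eif5b was 1.30 lower (22.6 and 13.8 FPKM) and Eif2s2 1.01 lower (134 and 102 FPKM). On the FPKM as deposited, 3 members were at least 1 apart with CBD as well, all higher in RasV12 cells and not the same 3, namely Eif4e3 (2.68), Eif4g3 (1.28) and Eif2ak3 (1.06). With equal FPKM sums of all groups only Eif4e3 was at least 1 apart with CBD.

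As a share of all FPKM, the 60 genes held 2.39% with DMSO and 2.92% with CBD in wild-type cells, and 2.1% and 3.05% in RasV12 cells. Most of it came from 5 genes, Eef1a1, Eef2, Eif5a, Eif1 and Eif4a1, which held 61.3% and 67% of the members' FPKM in wild-type cells and 60.5% and 68.5% in RasV12 cells. A share is not moved by a scale factor of the group. The members' share was higher with CBD in both lines, with 1 value for each group and no error.

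Within the members, the change went with transcript length and with level. The members called higher had median transcript lengths of 1899 nt in wild-type and 1997 nt in RasV12 cells, and those called lower 4319 and 4187.5 nt. Spearman's rho between log2(FPKM + 1) change and length across the 59 members was −0.47 and −0.41, and across all genes with a length −0.52 and −0.34. Members share libraries, so these values describe and carry no p. In the shortest of 10 equal bins of length 5.49% of all genes were lower in wild-type cells and 4.86% in RasV12 cells, and in the longest bin 78% and 46.7%. What part of the members' changes goes with length was not tested beyond the like-length reference, under which 31 members were higher and 10 lower in wild-type cells and 22 and 6 in RasV12 cells.

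The genes that rose were also the more abundant ones. Their median DMSO level was 95.4 FPKM in wild-type cells and 101 in RasV12 cells, beside 14.5 and 24.3 for those that fell. Spearman's rho between change and DMSO level was 0.56 and 0.61. Exceptions were Eif4a1, which fell in wild-type cells from 518 FPKM, and Eif4g3, with a transcript of 8134 nt and 8.16 FPKM, which rose in RasV12 cells.

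**Figure D4:**
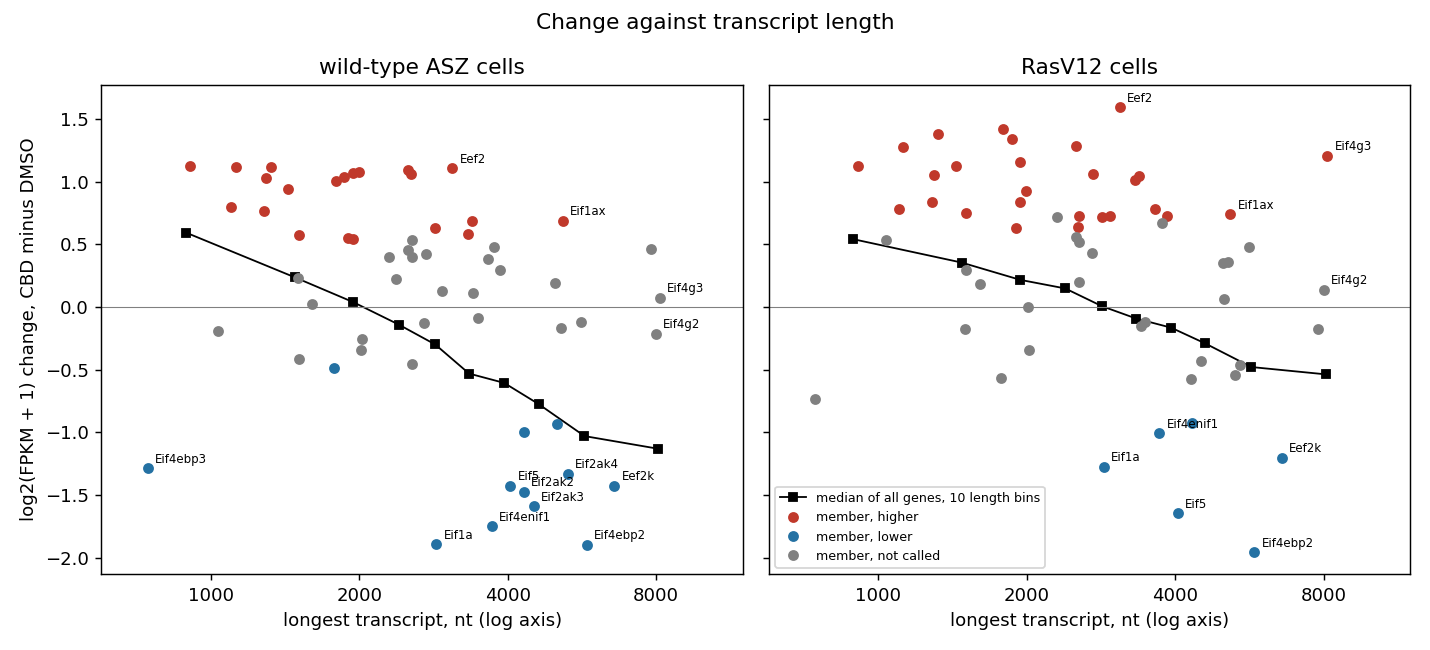
Log2(FPKM + 1) change with CBD against the length of the longest annotated transcript (nt, log axis) for the members, coloured by call, with the median of all genes in 10 bins of length (black). The black line falls from 0.59 to −1.13 in wild-type and from 0.54 to −0.54 in RasV12 cells; Eef2, Eif1ax and Eif4g3 lie above it, and Eif1a, Eif5 and Eif4ebp2 below it, in both panels.

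The placement of Eif1a, Eif5, Eif4ebp2 and Eif4enif1 among the lower genes and of Eef2 and Eif1 among the higher genes did not rest on 1 choice of reference. Of 27 members called in both lines, these 6 kept their calls with equal FPKM sums, equal fragment mass, the median ratio at 0 and genes of like length. For the other 21 at least 1 of these references ended a call in at least 1 line. Some of these lost RasV12 calls, such as that of Eef1g, rest on SEs that are upper limits. The same count was not made over all genes called in both lines, so it does not set the members apart from other genes.

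**Figure D5:**
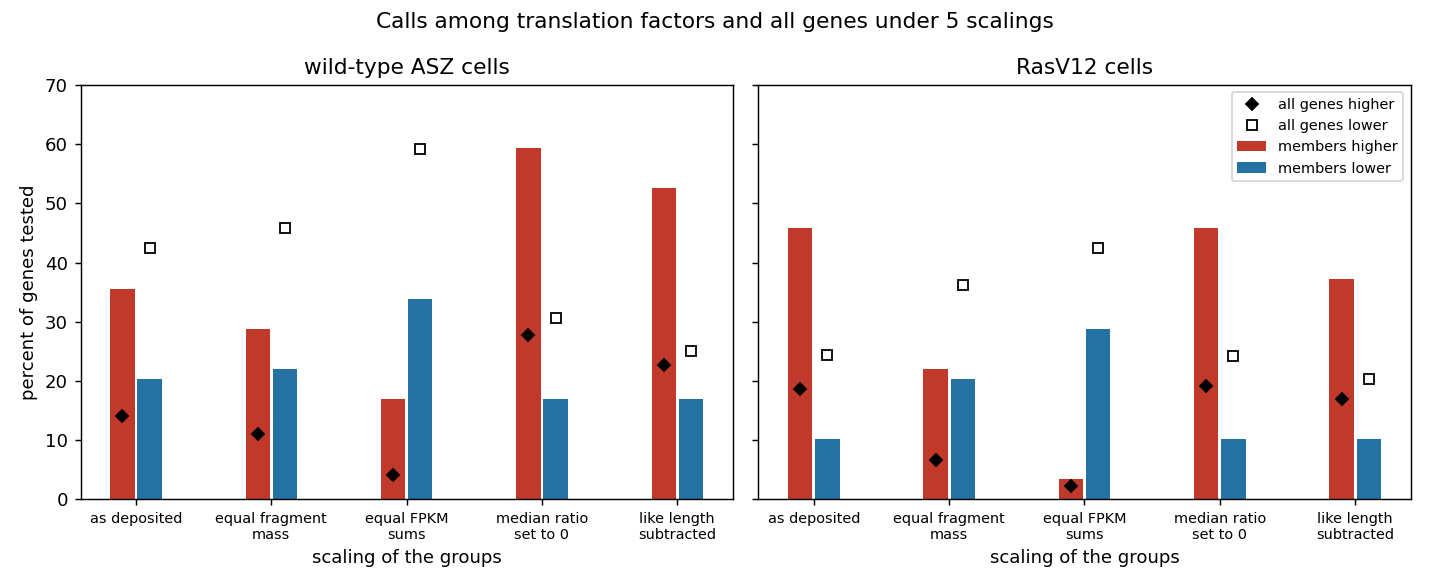
Percent of tested members called higher (red) and lower (blue) with CBD under 5 references, with the same for all genes (diamonds higher, squares lower), in wild-type and RasV12 cells. The members stay above all genes for higher calls and below them for lower calls in both panels, while their own count of higher calls moves from 10 to 35 in wild-type and from 2 to 27 in RasV12 cells.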

How the data were processed

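The submitters' processing notes name TopHat, Cufflinks and the mm9 build, without versions. For each line the authors deposited a table. These tables hold per gene symbol 1 FPKM value for each group of 2 libraries and the unadjusted p-value of the authors' comparison of CBD with DMSO, per the file headers. The p-values differ in kind: the lowest is 0 in the wild-type table (557 rows) and 5e-05 in the RasV12 table (1712 rows), per the authors' deposited table of each line. The authors' filtered sheets were not used here.

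Rows with no gene name (199 in the wild-type table) and rows named by a date (26 per table) were dropped, and RefSeq synonyms gave current symbols to 1644 and 1277 rows. Where a symbol was repeated (1179 and 412 rows), its highest row stood for it if the others were under 10% of that row. Genes with a test (p under 1) and at least 1 FPKM in a group were used. At that level 12 and 20 genes lacked a test. Benjamini-Hochberg adjustment ran over all genes used, with a threshold of 0.05. The implied SE is the log2 FPKM ratio divided by the normal quantile of the two-sided p. Changes over gene groups are log2(FPKM + 1), with a pseudocount of 1, which understates low genes. Precision is limited by the depth estimated for each group (14.1, 14.5, 16.5 and 10.6 M fragments per library, M being 1000000, for wild-type DMSO, wild-type CBD, RasV12 DMSO and RasV12 CBD); a scale factor would shift these estimates as depth does.

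Transcript lengths are the longest transcript in GENCODE M21 (98.5% and 98.4% of genes used had one), and promoters are from RefSeq. All members at 1 FPKM are named; full statistics are given for called members with a log2 ratio of at least 1 in size, members whose difference between the lines passed and the most abundant member of each role. Members and lists were chosen with earlier results of these data known. Alternatives were 4 other references of scale, no filter or 5 FPKM, a threshold of 0.01, Bonferroni adjustment, repeated symbols left out and pseudocounts of 0.1 and 5. Statistics were checked on simulated data. The simulated p-values had no lowest level like that of the deposited ones, and the other references of scale were not simulated. Python 3.11.15, numpy 2.4.6, pandas 2.3.3, scipy 1.17.1 and matplotlib 3.10.9 were used.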

Additional observations from a re-analysis of the deposited data

Results flagged for a closer look

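The CBD response differed between the lines, by the normal test on implied standard errors with Benjamini-Hochberg adjustment, for 3 translation factor genes. Eif2ak3 (PERK) had a log2 FPKM ratio of CBD to DMSO of −1.96 in wild-type and −0.49 in RasV12 cells, a difference of 1.47 (adjusted p 0.012). Eif5a2 had −1.19 and 0.07, a difference of 1.27 (adjusted p 0.0378), and Eif4g3 had 0.09 and 1.31, a difference of 1.22 (adjusted p 0.0305, from an SE that is an upper limit). Each has 1 value for each group, so no library can be examined singly. The tables of the 2 lines differ in gene names and in the kind of p-value, so a difference of line cannot be told apart from one of table. Over all 10405 genes 8.65% differed in this direction, and the median difference was 0.41. With each table's median ratio set to 0 the 3 differences were 1.04, 0.84 and 0.79, and none passed (adjusted p 0.206, 0.38 and 0.368).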

How the results depend on the processing

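No paired analysis was possible because the deposited tables hold 1 value for each group, and for the same reason no library could be left out. With equal FPKM sums, members called higher and lower numbered 10 and 20 in wild-type cells (21 and 12 as deposited) and 2 and 17 in RasV12 cells (27 and 6). The members' median log2 change was then −0.22 in wild-type (0.30 as deposited) and 0.00256 in RasV12 cells (0.56), and the companion median −0.52 (−0.08) and −0.43 (0.07). With equal fragment mass, RasV12 counts were 13 and 12, the members' median 0.17 and the companion median −0.31. With the median ratio at 0, wild-type cells had 35 members higher, a members' median of 0.73 and a companion median of 0.32. With genes of like transcript length as the reference, the wild-type medians were 0.53 and 0.15. With a filter of 5 FPKM the wild-type companion median was 0.0214. With Bonferroni adjustment 9 members were higher in wild-type cells and 0 higher and 0 lower in RasV12 cells, where the lowest p-value times 11075 genes cannot pass. For the difference between the lines, 1 member passed with equal FPKM sums and 0 with the median ratio at 0. Members at least 1 apart between the lines with CBD numbered 1 with equal FPKM sums of all groups (3 when centred, and 3 as deposited, of which Eif4e3 was in both). The remaining alternatives kept each of these counts within 1.5 times and each median within 1 typical implied SE.

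Directions that turned among genes called under the alternative were those of Ago1 (0.61), Eif3a (1.19), Eif4g1 (1.24) and Eif4g2 (1.36) in wild-type cells with genes of like length as the reference. In RasV12 cells Eif2b1 was called lower, with −0.59 under equal FPKM sums and −0.41 under equal fragment mass. Its deposited log2 ratio of 0.000394 (adjusted p 0.998) had no direction to turn from. These 2 calls rest on an implied SE of 0.14, which a ratio so near 0 does not fix well. For Eif2b2 and Eif2b5 the SE was 0.31 and 0.27. Over all genes, those called higher numbered 437 (equal sums), 2980 (median at 0), 2431 (like length) and 324 (Bonferroni) in wild-type cells against 1502, and those called lower 2682 (like length) and 2435 (Bonferroni) against 4538. In RasV12 cells higher calls numbered 253 (equal sums), 738 (equal mass), 1317 (threshold 0.01) and 0 (Bonferroni) against 2072, and lower calls 4705 (equal sums) and 0 (Bonferroni) against 2707. The cause of these shifts was not tested beyond the scale factors themselves. How far depth sets the implied SEs was not tested: they were 0.46 and 0.51 for Eif4ebp3, at 5.11 FPKM or less, and 0.47 and 0.52 for Eif2a, at 17.7 to 39.5 FPKM.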
